A study of Mus musculus with 40 samples.

Results

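Transcript levels in small intestinal tissue were compared between mice of the BALB/c and C57BL/6 strains, all given only phosphate-buffered saline (PBS). The comparison used 10 of the 40 arrays of the series, 5 from BALB/c and 5 from C57BL/6 mice, taken by the strain, treatment and tissue in their titles. All were 9-week-old females, and each mouse was gavaged with 200 µl of PBS 3 times a week for 4 weeks as the vehicle control of a study of the probiotic mixture VSL#3. The C57BL/6 mice came from Charles River and the BALB/c mice from Janvier, so strain and supplier cannot be told apart. RNA came from frozen intestinal tissue. The labels name neither the segment of the small intestine, nor the hour of collection, nor the chip that carried each array, nor how the mice were caged.

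BALB/c and C57BL/6 are inbred strains that differ in their major histocompatibility complex, called H2 in the mouse. BALB/c carries the H2 d haplotype and C57BL/6 the H2 b haplotype, in which a deletion in the promoter of H2-Ea stops the class II E alpha chain from being made. The small intestine also carries a family of alpha-defensins, antimicrobial peptides of the Paneth cells at the crypt base, whose gene copies differ between inbred strains. Each probe of an Illumina BeadChip is a single short oligonucleotide, so a sequence difference beneath it can change its signal without a change in RNA, and several probes of a gene give separate readings of it.

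Each array read 25697 probes, of which 12061 to 12994 (46.9% to 50.6%) were detected on the 10 arrays at a detection p under 0.05. Levels are given below as normalized log2 signals, on which the dimmest detected probe had a median of 5.18 over these arrays (range 5.09 to 5.25). Differences are BALB/c minus C57BL/6 on the log2 scale, with the standard error (SE) of limma's fit and n = 5 mice in each strain. Pearson's r over all 25697 probes was 0.978 to 0.988 between mice of a strain and 0.966 to 0.977 between strains. The Y-linked genes Kdm5d and Eif2s3y were detected on no array and the X-inactivation transcript Xist on all 40. The probe of the Y-linked gene Uty was detected on 24 of the 40 arrays, and its signal was at most 6.28 on any. The sucrase Sis read 13.01 to 13.82 in the 10 small intestines and at most 7.03 in any colon, and the ileal bile acid binding protein Fabp6 read 13.86 to 14.44 against at most 8.91. The colonic water channel Aqp8 read at most 5.81 on its brighter probe in the 10 small intestines and 11.05 to 11.56 in the colons. The actin-bundling protein villin, Vil1, a marker of the epithelial brush border, read 12.89 to 13.24.

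The strains differed in genes of many functions. Of 9634 genes tested, 1054 (10.9%) passed limma's test at a Benjamini-Hochberg adjusted p under 0.05, which is what "called" means below. They comprised 508 genes higher in BALB/c (5.27%) and 546 lower (5.67%), and the median difference over all genes tested was 0.02. With median scaling of the arrays in place of quantile normalization the counts were 327 higher and 455 lower. Larger differences were more often losses of signal in BALB/c. Of the 274 called genes that differed by over 2-fold (2.84%), 98 were higher in BALB/c (1.02%) and 176 lower (1.83%), so that 64.2% were lower. At a log2 difference over 2 the counts were 17 higher and 42 lower, and over 3 they were 9 and 22. The values of the 5 and 5 mice did not overlap for 854 genes (8.86%), and for 730 (7.58%) that was so and the gene was called.

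One of the 3 greatest differences toward BALB/c was in H2-Ea, the class II E alpha chain. It read 13.34, 13.03, 12.63, 13.25 and 12.74 in BALB/c mice 1 to 5, and 5.54, 6.35, 4.97, 6.96 and 4.75 in C57BL/6 mice 1 to 5. The lowest BALB/c mouse lay far above the highest C57BL/6 mouse, and the difference was 7.28 ± 0.36 (limma, adjusted p = 1.36e-12). The signal was detected in 3 of the 5 C57BL/6 mice, numbers 1, 2 and 4.

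Genes of the class II region moved in both directions. H2-Aa, the A alpha chain, read 8.74, 7.66, 7.47, 8.44 and 8.76 in BALB/c and 12.65, 12.95, 13.13, 12.86 and 13.01 in C57BL/6. All 5 BALB/c mice were lower, by 4.71 ± 0.20 (limma, adjusted p = 9.02e-14), and no second probe was kept for this gene. The peptide-loading regulator H2-Ob differed by -1.56 ± 0.18, while H2-DMb2, a beta chain of the H2-DM loading catalyst, was higher by 1.02 ± 0.24. Of 14 class II presentation genes tested, 2 were called higher and 2 lower, with a median difference of 0.04 beside 0.02 for all genes.

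Class I genes also moved in both directions. The nonclassical gene H2-Q5 read 9.12 to 10.17 in BALB/c and 5.81 to 6.08 in C57BL/6 (3.83 ± 0.19, adjusted p = 1.36e-12 by limma). Its neighbour H2-Q8 was higher by 2.38 ± 0.23, whereas H2-Q7 differed by -1.44. The immunoproteasome subunit Psmb9, which trims peptides for class I, read 7.75, 7.79, 6.98, 7.82 and 7.24 in BALB/c and 9.75, 10.05, 10.58, 9.95 and 10.44 in C57BL/6. The groups did not overlap, at -2.64 ± 0.19 (limma, adjusted p = 7.67e-10). The H2-Q genes are close copies of each other, so their probes may share targets. Of 27 class I and peptide-loading genes tested, 4 were called higher and 3 lower, with a median of -0.21.

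**Figure D1:**
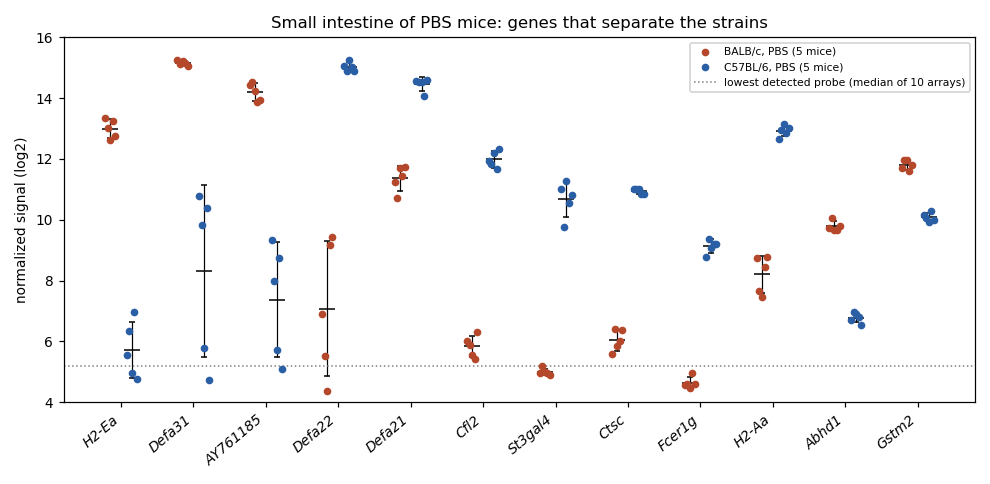
Normalized log2 signal (y axis, log2 scale) of 12 genes that separated the strains, 5 BALB/c and 5 C57BL/6 PBS mice per gene, 1 point per mouse, with bars at the mean ± SD and the dotted line at the median signal of the dimmest detected probe (5.18). In C57BL/6 the points of H2-Ea, Defa31 and AY761185 spread over several log2 units, with mice 3 and 5 lowest. In BALB/c the points of Defa22 also spread over several log2 units.

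Paneth cell genes held the largest differences outside the H2 complex. Defa22, an alpha-defensin, read 6.89, 5.52, 4.37, 9.18 and 9.43 in BALB/c and 15.06, 14.90, 15.27, 15.02 and 14.90 in C57BL/6. Every C57BL/6 mouse was near the top of the array's range and every BALB/c mouse far below it, at -7.95 ± 0.82 (limma, adjusted p = 2.78e-07). Defa21 followed the same direction, with 11.25, 10.71, 11.70, 11.43 and 11.72 in BALB/c against 14.57, 14.54, 14.52, 14.05 and 14.59 in C57BL/6, a difference of -3.09 ± 0.18. Within BALB/c, Defa22 spread widely, with mice 4 and 5 above the rest at 9.18 and 9.43. What set those mice apart was not tested.

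Defa31 and AY761185, another gene of the defensin cluster, had the opposite direction. Defa31 read 15.27, 15.11, 15.21, 15.16 and 15.06 in BALB/c and 10.78, 9.84, 5.80, 10.40 and 4.74 in C57BL/6 (6.85 ± 1.04, limma, adjusted p = 6.38e-05). AY761185 read 14.42, 14.52, 14.24, 13.87 and 13.93 in BALB/c and 9.33, 7.99, 5.70, 8.75 and 5.08 in C57BL/6 (6.83 ± 0.76, limma, adjusted p = 1.04e-06). BALB/c mice were tightly grouped, and C57BL/6 mice 1, 2 and 4 stood above mice 3 and 5 for both genes, as they did for H2-Ea. With C57BL/6 mice 3 and 5 alone, an alternative added after these values were seen, the differences were 8.14 for H2-Ea, 9.89 for Defa31 and 8.80 for AY761185, and 920 genes were called, 660 of them among the 1054. What raised these 3 genes in mice 1, 2 and 4 was not tested.

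The remaining Paneth cell products mostly leaned toward C57BL/6. Ang4, an angiogenin with antimicrobial activity, read 11.17 to 11.82 in BALB/c and 13.21 to 13.52 in C57BL/6, a difference of -1.95 ± 0.13 (limma, adjusted p = 1.8e-10). The intelectin Itln1, a lectin that binds microbial sugars, differed by -1.17 ± 0.15 (adjusted p = 1.01e-05 by limma). The whole list, with Defa21, Defa22 and Defa31 counted again, held 22 Paneth cell products tested. Of these, 1 was called higher, Defa31, and 9 lower, and 4 lay above 0, with a median of -0.33. Leaving out each mouse gave 7 to 10 lower. The mean log2 level of the list was 11.27 to 11.51 in BALB/c and 11.80 to 12.06 in C57BL/6. Not all of its members are particular to Paneth cells. Among the 9 called lower is colipase, Clps, counted again below with pancreatic acinar and lipid absorption genes. Alpha-defensin genes are nearly identical in sequence, so a probe may read several copies or miss a strain's own copy, and in whole tissue fewer cells of a type and less RNA per cell cannot be told apart.

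Where a gene had 2 or more kept probes, their strain differences were compared array by array to find signals that may reflect a sequence difference under a probe. Of 3401 probe pairs in 2447 genes, 140 pairs (4.12%) in 125 genes (5.11%) gave different strain differences at an adjusted p under 0.05 in limma. The median size of these disagreements was 0.98. The probe with the larger strain difference was lower in BALB/c in 85 pairs and higher in 55, and among the 19 pairs that disagreed by over 2 log2 units the counts were 15 and 4. Of the 140 disagreements, 101 were called again in the VSL#3 mice, which are other animals. The probe sequences were not analysed here, so a variant under a probe, another isoform and another gene copy cannot be told apart. A dim probe also has less room to show a loss of signal, and its part in these disagreements was not tested.

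Disagreement was counted apart for genes with and without a called strain difference. A call and a disagreement both use the gene's brightest probe on the same arrays, so a higher share among called genes is partly built in. Among 281 called genes with several kept probes, 54 (19.2%) had a disagreeing pair, against 71 (3.28%) of 2166 genes that were not called. Among the 56 of them that differed by over 2-fold, the share was 23 (41.1%), and in 24 every other probe was called the same way with no disagreement. A further 773 called genes, 218 of them over 2-fold, had 1 kept probe and no such check.

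Cfl2, the muscle cofilin that severs actin filaments, was an example. Its brighter probe read 6.01, 5.87, 5.56, 5.42 and 6.29 in BALB/c and 11.92, 11.82, 12.20, 11.66 and 12.33 in C57BL/6, a difference of -6.16 ± 0.21 (limma, adjusted p = 3.89e-15). Its other probe read 5.51 to 6.67 and 6.04 to 6.59, a difference of -0.03. The strains were fully apart on one probe and overlapped on the other. That other probe was dim in both strains, near the signal of the dimmest detected probe, where so large a drop cannot be read.

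In Defa20 the brighter probe read 15.16 to 15.42 in BALB/c and 14.86 to 15.31 in C57BL/6 (0.19, adjusted p = 0.314 by limma). The other read 4.66 to 9.42 against 14.90 to 15.06, a difference of -7.95. On that probe BALB/c mice 4 and 5 were highest, as for Defa22, at 9.03 and 9.42. H2-Ab1, the class II A beta chain, differed by 0.33 on its brightest probe and by -0.76 and -0.14 on 2 others, while the fourth read 7.34 to 8.69 in BALB/c and 13.17 to 13.82 in C57BL/6, a difference of -5.16. In H2-Ab1 1 probe of 4 held the large difference. The brighter Defa20 probe lay near the top of the signal range in both strains, where a difference may not be resolved.

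The same held for Mcm6, a subunit of the replicative helicase, and for the zinc finger gene Zfp330. In Mcm6, 3 probes differed by 0.19, -0.13 and 0.41 and the remaining probe by -4.25, with 4.65 to 5.97 in BALB/c and 9.70 to 9.91 in C57BL/6. The probe at 0.41 was dim, at 4.50 to 6.04 and detected in 3 mice of each strain, so it could not show such a drop. In Zfp330 the probes differed by -0.10 and -4.42. Rpl29, a protein of the large ribosomal subunit, was lower on both probes but by unequal amounts, -1.0 and -4.91. Tor1aip2, which encodes an activator of torsin ATPases, read -4.15 on its brightest probe and -1.20 and -0.32 on the others. Those others read 4.75 to 6.36 over both strains, near the dimmest detected signal, where a larger drop cannot be read.

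Probes of 7 pairs were called in opposite directions. In H2-Q2 the brighter probe read 9.05 to 9.46 in BALB/c and 4.38 to 4.57 in C57BL/6, where no array detected it, so BALB/c was at least 16.6-fold higher (limma, adjusted p = 7.05e-15). The other probe read 4.65 to 5.22 against 8.17 to 9.01, a difference of -3.69. Pdxdc1 differed by -1.09 on its brightest probe and by 1.78 and 2.40 on the others. H2-K1, the classical class I K heavy chain, was higher by 2.26 on its brighter probe, and the other gave -1.27, which was not called (adjusted p = 0.07 in limma). In the VSL#3 mice the probes gave 2.82 and 0.38.

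**Figure D2:**
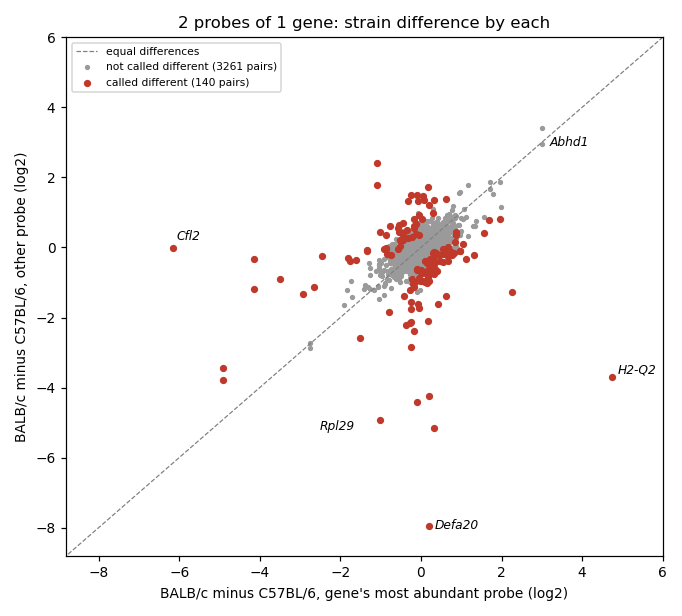
Strain difference (BALB/c minus C57BL/6, log2) by a gene's most abundant probe (x axis) and by another kept probe of the same gene (y axis), for 3401 pairs, with the 140 pairs whose differences were called unequal in red and a dashed line of equal differences. Points near 0 on the y axis and far to the left, such as Cfl2, or near 0 on the x axis and far below, such as Defa20, are genes in which 1 probe gave a large difference and the other did not.

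Other large differences were held by all kept probes of a gene. Abhd1, an abhydrolase-domain protein, read 9.66 to 10.05 in BALB/c and 6.55 to 6.96 in C57BL/6 on its brightest probe, and its 3 probes gave 3.00, 2.95 and 3.40. Gstm2, a glutathione transferase, read 11.71, 11.96, 11.95, 11.60 and 11.80 in BALB/c against 10.14, 10.06, 9.91, 10.29 and 9.99 in C57BL/6, and its probes gave 1.72, 1.66 and 1.86. Ctsc, the lysosomal protease cathepsin C that activates granule proteases, read 5.57 to 6.39 in BALB/c and 10.84 to 11.03 in C57BL/6, with -4.91, -3.43 and -3.79 on its probes. The strains were apart on every probe of these 3 genes, although the sizes of the Ctsc differences were called unequal.

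Further large differences rested on 1 probe each. St3gal4, a sialyltransferase that caps mucosal and leukocyte glycans, read 4.95, 5.18, 4.98, 4.97 and 4.89 in BALB/c, where no array detected it, and 11.00, 9.76, 11.27, 10.55 and 10.81 in C57BL/6. C57BL/6 was at least 45.5-fold higher (limma, adjusted p = 1.84e-15). Fcer1g, the signalling chain shared by Fc receptors, read 4.58, 4.60, 4.48, 4.96 and 4.59 against 8.76, 9.37, 9.07, 9.21 and 9.22, and C57BL/6 was at least 15.5-fold higher (limma, adjusted p = 3.18e-17). Both genes were below detection in all 5 BALB/c mice.

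C57BL/6 was also at least 13.1-fold higher for ccdc198, 12.4-fold for the TFIID subunit Taf4, 10.1-fold for the aldehyde dehydrogenase Aldh1a7 and 8.55-fold for the RNA acetylation adaptor Thumpd1, none of them detected in BALB/c. BALB/c was at least 9.82-fold higher for the linker histone H1f10. Serpina10, a protease inhibitor of the coagulation system, read 7.96 to 8.42 in BALB/c and 4.60 to 5.52 in C57BL/6 (3.31 ± 0.18), and Acta1, skeletal muscle alpha-actin, 4.65 to 5.74 against 7.93 to 10.66 (-4.51 ± 0.36, limma, adjusted p = 5.45e-09). Among C57BL/6 mice the lowest Acta1 value was 7.93, in mouse 1, while the others read 9.42 to 10.66.

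The remaining genes among the 15 greatest in each direction follow. The ESCRT subunit Chmp1a, the Golgi membrane protein gene Tmem87a, Plek2 and the thiopurine methyltransferase Tpmt were higher in BALB/c by 2.28 to 2.85. The phospholipase-like gene Abhd16a of the H2 region differed by -4.08 and the initiator caspase Casp9 by -3.56. Rmdn3, a tether between mitochondria and endoplasmic reticulum, differed by -3.49 on its brighter probe and by -0.90 on the other.

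Clock genes differed in opposed groups. In the circadian oscillator, Arntl (BMAL1) and Clock drive transcription through the E-box sequence CACGTG, Nr1d1 and Nr1d2 (REV-ERB alpha and beta) repress Arntl and Nfil3, and Dbp, Tef and Nfil3 act on shared D-box elements, Nfil3 as the repressor. The intestine is known for strong daily rhythms that follow feeding. Of 15 clock genes tested, 4 were called higher and 2 lower in BALB/c, and these counts did not change on leaving out any 1 of the 10 mice. With C57BL/6 mice 3 and 5 alone they were 4 and 1. Arntl and Tef were named after their values were seen.

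Dbp read 8.79, 9.64, 9.23, 9.14 and 9.45 in BALB/c and 6.50, 5.82, 5.90, 6.61 and 6.69 in C57BL/6, a difference of 2.95 ± 0.42 (limma, adjusted p = 3.33e-05). Nr1d1 read 7.19, 7.91, 7.71, 7.50 and 7.51 against 5.29, 6.15, 5.38, 6.11 and 5.93 (1.79 ± 0.22, adjusted p = 3.58e-06 by limma), and its other probe gave 1.52. All 5 BALB/c mice were above all 5 C57BL/6 mice for both genes.

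Nr1d2 read 6.91 to 8.50 in BALB/c and 5.79 to 6.56 in C57BL/6 (1.70 ± 0.26, adjusted p = 7.13e-05 by limma), with 0.78 on its other probe. Tef read 6.67, 7.59, 6.26, 6.47 and 6.98 against 5.33, 5.50, 4.84, 5.70 and 5.04 (1.51 ± 0.32, limma, adjusted p = 0.00228). Opposite to these, Nfil3 read 8.13, 8.08, 7.31, 7.55 and 7.20 in BALB/c and 8.99, 9.47, 9.25, 9.00 and 9.58 in C57BL/6 (-1.60 ± 0.21, limma, adjusted p = 8.71e-06).

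Arntl, the positive arm, was also lower, with 8.40 to 8.78 in BALB/c and 9.22 to 9.60 in C57BL/6 (-0.91 ± 0.21, limma, adjusted p = 0.00598). The oscillator's other members did not pass the test, among them Clock at -0.19, Per1 at -0.37, Per2 at 0.41 and Cry2 at 0.25. The list's median was -0.11. The hour of collection is not given for either strain, so a difference in phase and a difference in level cannot be told apart.

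**Figure D3:**
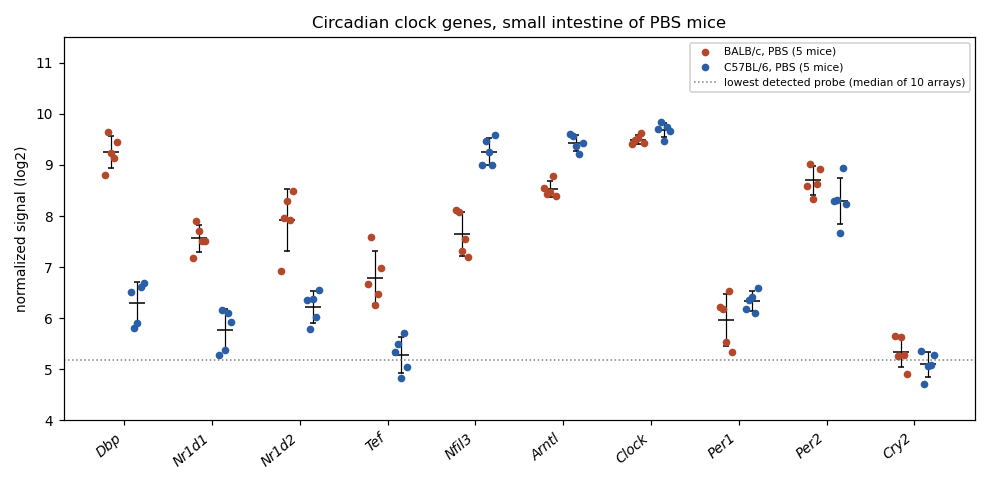
Normalized log2 signal (y axis, log2 scale) of circadian clock genes in the 5 BALB/c and 5 C57BL/6 PBS mice, 1 point per mouse, with bars at the mean ± SD and the dotted line at the dimmest detected probe. Dbp, Nr1d1, Nr1d2 and Tef lie higher in BALB/c and Nfil3 and Arntl lower, with no overlap between strains, while Clock, Per1, Per2 and Cry2 did not pass the test.

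The E-box is shown in the promoter windows of Tef, the called clock gene that carries it within 250 bases before a RefSeq transcript start (build GRCm38.p6, plus strand). Each line gives 60 bases with the E-box in capitals, which begins 127 bases before the start in the first and 138 in the second.
Tef chr15:81802519-81802578: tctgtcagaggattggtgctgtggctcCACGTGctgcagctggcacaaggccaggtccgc
Tef chr15:81811249-81811308: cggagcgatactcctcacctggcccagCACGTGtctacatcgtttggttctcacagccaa
CACGTG reads the same on both strands, and overlap with other motifs was not searched. It was found for 3 of the 13 clock genes that have a promoter entry and for 1 of the 6 called, beside 6.02% of 32851 promoter windows and 10.1% of 7839 tested genes with an entry. A match is a description of these letters only.

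Among genes of lymphoid tissue, those of B cells and follicles were higher in BALB/c where called. B cells gather in Peyer's patches and isolated follicles. High endothelial venules of lymphoid tissues make Glycam1 or Madcam1, which serve homing lymphocytes. Of 20 B cell and follicle genes tested, 9 were called higher and none lower, 19 lay above 0, and the median was 0.65. Leaving out BALB/c mouse 1 gave 3 called, BALB/c mice 4 or 5 or C57BL/6 mice 1 or 2 gave 4, BALB/c mouse 3 or C57BL/6 mice 3 or 4 gave 5, and the remaining mice 9 and 8, while the median stayed between 0.58 and 0.79. With C57BL/6 mice 3 and 5 alone, 1 was called and the median was 0.52. The mean log2 level of the list was 6.78 to 7.55 in BALB/c and 6.48 to 7.06 in C57BL/6, so the strains overlapped, and all 20 genes were detected on at least 1 of the 10 arrays.

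Ltb, the lymphotoxin that organises follicles, read 7.61, 7.01, 7.54, 7.48 and 7.45 in BALB/c and 6.22, 6.32, 6.01, 6.06 and 6.89 in C57BL/6 (1.12 ± 0.21, limma, adjusted p = 0.000958). Ccr6, a chemokine receptor of follicle B cells, was higher by 1.29 on its brighter probe (adjusted p = 0.00394 by limma) and by 0.62 on the other. Fcer2a, the low-affinity IgE receptor CD23 of mature B cells, was higher by 0.92 ± 0.24.

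Glycam1 had the largest difference of the homing genes. It read 9.87, 8.58, 10.04, 10.04 and 10.38 in BALB/c and 6.41, 6.14, 6.25, 5.70 and 7.01 in C57BL/6 (3.48 ± 0.39, limma, adjusted p = 1.15e-06). Madcam1, the receptor of gut-homing lymphocytes, was higher by 0.76 ± 0.16 and Ccl21a, a chemokine of lymphatic and venule cells, by 0.98 ± 0.21. Of 25 chemokines and homing receptors, 5 were called higher and 3 lower, and leaving out BALB/c mice 1, 3 or 5 or C57BL/6 mouse 1 gave 3 higher. The lowest was the skin-homing chemokine Ccl27a, at -1.77 on the brighter probe and -0.38 on the other. How much follicle each piece of tissue held was not tested.

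T cell genes leaned the same way. Of 23 T cell and intraepithelial lymphocyte genes, 5 were called higher and none lower, with a median of 0.32. Leaving out BALB/c mice 1, 4 or 5 or C57BL/6 mice 1 or 4 gave 2 called higher, C57BL/6 mouse 3 gave 3, and the others gave 4 to 6. With C57BL/6 mice 3 and 5 alone, 2 were higher and 1 lower. Cd27, a costimulatory receptor, read 7.03 to 8.08 in BALB/c and 5.67 to 6.44 in C57BL/6 (1.35 ± 0.22, limma, adjusted p = 0.00017). None of 10 plasma cell genes was called by limma, with a median of 0.13.

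Innate genes were divided. Of 21 macrophage and dendritic cell genes, 1 was called higher and 5 lower, including Ctsc and Fcer1g above, the complement subunit C1qb at -0.68 ± 0.15, and the low-affinity IgG receptor Fcgr3 at 1.13 ± 0.19. Of 34 microbial sensing and NF-kB genes, 2 were called higher and 4 lower. Aim2, a sensor of cytosolic DNA, read 6.26 to 7.20 in BALB/c and 4.78 to 5.13 in C57BL/6 (1.85 ± 0.16, adjusted p = 1.08e-08 by limma).

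The endotoxin co-receptor Ly96 (MD-2) differed by -1.70 ± 0.16 and the inflammasome adaptor Pycard by -0.80 ± 0.14. Nfkb2, the p100 subunit of NF-kB, was detected in no BALB/c mouse and was at least 2.60-fold higher in C57BL/6. All of these differed with no overlap between the 5 and 5 mice.

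Interferon response genes were lower in BALB/c where they were called, which was 16.7% of them, beside 10.9% of all genes tested. Of 36 tested, none was called higher and 6 lower, with a median of -0.16, and leaving out each mouse gave 5 to 9 lower, with 9 without BALB/c mouse 1, and 3 were lower with C57BL/6 mice 3 and 5 alone. Oasl2, an antiviral protein of the oligoadenylate synthetase family, read 9.99, 9.54, 9.39, 9.54 and 8.99 in BALB/c and 10.71, 11.20, 10.59, 11.57 and 10.40 in C57BL/6 (-1.40 ± 0.26, limma, adjusted p = 0.000576), and its other probe gave -1.19. Trim30a, an inhibitor of innate signalling, was at least 5.37-fold higher in C57BL/6 and undetected in BALB/c. Ifit3 at -1.26 and the guanylate-binding protein Gbp2 at -0.91 were called on their brightest probes but differed by -0.58 and -0.78, and by -0.33, on the others.

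Cytokine transcripts themselves gave little. Il10, Ifng, Tnf, Il17a and Il6 did not pass the detection filter. Il1b differed by 0.06 (adjusted p = 0.886) and Tgfb1 by -0.17 (adjusted p = 0.646), both by limma. The antimicrobial lectin Reg3g read 13.46 to 13.93 in BALB/c and 13.85 to 15.06 in C57BL/6 (-0.62 ± 0.19, limma, adjusted p = 0.0379), a call that was lost without any 1 of BALB/c mice 2, 3, 4 and 5 or C57BL/6 mice 1, 3 and 5, with an adjusted p of up to 0.113. Its relative Reg3b differed by -0.26 (adjusted p = 0.176). Of 26 cytokines and receptors, 2 were called higher and 1 lower, among them the lambda interferon receptor Ifnlr1 at 0.62 ± 0.14 (0.33 on its other probe) and the gamma interferon receptor Ifngr1 at -0.50 ± 0.13.

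Enzymes that detoxify and conjugate foreign compounds differed in both directions. Of 50 glutathione transferases and conjugating enzymes, 12 were called higher and 6 lower in BALB/c, with a median of 0.17, and leaving out each mouse gave 9 to 14 higher and 5 to 7 lower. Beside Gstm2, its family member Gstm6 was higher by 1.37 ± 0.18 (0.75 on its other probe), and the carboxylesterase Ces1f was higher by 0.93 ± 0.11. Of 23 cytochrome P450s, 1 was called higher and 4 lower. Cyp3a13, a drug-oxidising enzyme of the gut, gave -0.89, -1.05 and -1.02 on its 3 probes, and Cyp4f18, a fatty acid hydroxylase, gave -1.73 and -0.95.

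Genes of fatty acid oxidation leaned toward BALB/c. Of 29 tested, 5 were called higher and none lower, with a median of 0.12, and 20 lay above 0. Calls made up 17.2% of the list, beside 10.9% of all genes tested. Leaving out BALB/c mice 2, 3, 4 or 5 or C57BL/6 mice 3 or 5 gave 3 called. The peroxisomal oxidase Acox2 was higher by 1.45 ± 0.22, the acyl-CoA hydrolase Acot12 by 1.24 ± 0.29 and the mitochondrial thiolase Acaa2 by 0.78 ± 0.18. Catalase, Cat, which breaks down the peroxide these oxidases make, read 9.12 to 10.14 in BALB/c and 8.10 to 8.75 in C57BL/6 (1.30 ± 0.19, limma, adjusted p = 4.43e-05). The sterol oxidase Msmo1, of cholesterol synthesis, differed by -1.88 ± 0.17, and of the 18 genes of that pathway tested 1 was called higher and 1 lower. At 11.1%, that pathway was near the share of all genes tested.

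Called absorptive genes lay in both directions. The share called was 10.5% for brush border enzymes and 15.8% for distal markers, beside 10.9% of all genes tested. It was 27.3% for nutrient transporters and 37.5% for proximal markers. Of 19 brush border enzymes, 1 was called higher and 1 lower, the latter the trehalose-splitting enzyme Treh at -0.75 ± 0.17. Of 22 nutrient transporters, 4 were called higher and 2 lower. Slc28a2, a nucleoside transporter, read 8.44 to 9.46 in BALB/c and 6.75 to 7.56 in C57BL/6 (1.71 ± 0.29, limma, adjusted p = 0.000232). Of 16 markers of the proximal small intestine, 2 were called higher and 4 lower, with a median of 0.27. Leaving out BALB/c mice 2 or 5 or C57BL/6 mouse 4 gave 0 higher, BALB/c mouse 1 gave 3, and C57BL/6 mice 3 and 5 alone gave 0 higher and 2 lower. Of 19 distal markers, 2 were higher and 1 lower. The iron exporter Slc40a1 differed by -0.72 ± 0.12 and the folate transporter Slc46a1 by -0.72 ± 0.19, and the bile acid binding protein Fabp6 by -0.03 (adjusted p = 0.917 by limma).

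Hormone genes of enteroendocrine cells were higher in BALB/c where called, 4 of 22 tested with none lower and a median of 0.13. That was 18.2% called, beside 10.9% of all genes tested. Gcg, which encodes the GLP-1 precursor of distal L cells, read 11.03, 10.95, 11.97, 11.27 and 11.74 in BALB/c and 10.44, 10.54, 10.02, 10.47 and 10.16 in C57BL/6 (1.07 ± 0.18, limma, adjusted p = 0.000182). Pyy, a peptide of the same cells, was higher by 0.57 ± 0.11 and the secretory chaperone Scg5 by 1.38 ± 0.19. No mouse of either strain overlapped the other strain for these 3 genes.

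Tuft cell genes were lower in BALB/c where called. The few called crypt stem and cell cycle genes were lower too. For those lists the share called in either direction was near the 10.9% of all genes tested, so their direction rests on few genes. Of 15 tuft cell genes, 4 were lower and none higher, and 2 were lower without BALB/c mouse 1 or C57BL/6 mice 4 or 5. Alox5ap, which serves leukotriene synthesis, differed by -0.84 ± 0.18. Of 15 crypt stem and Wnt genes, 2 were lower, the Wnt target Sp5 at -0.93 ± 0.14 and the receptor Tnfrsf19 at -1.11 ± 0.17. Of 26 cell cycle genes 3 were lower, and 1 was without BALB/c mouse 3 or C57BL/6 mice 1, 2 or 3. Among them was Cdca3, a trigger of mitotic entry, at -0.85 ± 0.18.

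Glycan-building enzymes included some of the strongest single differences. Of 28 tested, 2 were called higher and 5 lower, and 3 lower without C57BL/6 mouse 5. Beside St3gal4, the core-extending enzyme B3gnt3 read 7.04 to 7.68 in BALB/c and 9.31 to 9.75 in C57BL/6 (-2.13 ± 0.15, limma, adjusted p = 7.37e-10), and the core 2 branching enzyme Gcnt1 gave -1.82 and -1.23 on its probes. The sialyltransferase St3gal6 went the other way, with 10.15 to 10.64 against 8.58 to 9.19 (1.54 ± 0.13). Of 16 goblet cell products, 2 were called higher and none lower, the kallikrein Klk1 by 0.45 ± 0.10. The goblet share, 12.5%, was near the 10.9% of all genes tested.

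Of 19 smooth muscle genes of the muscle wall, 1 was called higher and 7 lower in BALB/c, with a median of -0.37, which was -0.06 in the VSL#3 mice. Leaving out each mouse gave 6 to 9 lower, and C57BL/6 mice 3 and 5 alone gave 3. The mean log2 level of the list was 8.87 to 9.36 in BALB/c and 9.22 to 9.72 in C57BL/6, so the strains overlapped. Actg2, the enteric smooth muscle actin, read 11.90 to 12.40 against 12.66 to 13.22 (-0.82 ± 0.12, limma, adjusted p = 5.34e-05). The small heat shock protein Hspb6 differed by -1.39 ± 0.12 and the adhesion-plaque protein Pgm5 by -1.92 and -1.65 on its probes, whereas cardiac actin, Actc1, was higher by 1.98 and 1.15.

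Among 27 fibroblast and collagen genes, none was called higher and 3 lower, including the collagen chain Col1a2 at -1.93 ± 0.13 and the calcification inhibitor Mgp at -1.12 ± 0.13. The median of this list was -0.03, and 11.1% of it was called, beside 10.9% of all genes tested. Of 12 enteric neuron and glia genes, the neuropeptide Gal differed by -1.51 ± 0.17 and Cartpt by 0.78 ± 0.18, and 1 of 17 endothelial genes was called, Vwf at -0.88 ± 0.22. The neuron and endothelial lists had 16.7% and 5.88% called. How much muscle each piece of tissue held was not tested.

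Stress genes were led by Atf4, the transcription factor of the integrated stress response. It read 7.71, 7.85, 7.97, 7.86 and 8.14 in BALB/c and 9.66, 9.79, 9.70, 9.46 and 9.78 in C57BL/6 (-1.77 ± 0.10, limma, adjusted p = 2.75e-11), on its 1 kept probe. Of 22 heat shock and unfolded protein response genes, 5 were called higher and 1 lower, with 3 higher without C57BL/6 mouse 2. The disulfide isomerase Pdia6 was higher by 1.26 ± 0.15, the chaperonin Hspe1 by 0.93 ± 0.17 and the chaperone Hspa8 by 0.57 and 0.46 on its probes. Of 20 immediate early genes, 1 was called higher and 2 lower, the stress sensor Gadd45b at -1.07 ± 0.20.

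Genes of tissues that may adhere to the intestine were also read. Of 11 pancreatic acinar genes, 1 was called higher and 2 lower, the zymogen granule protein Gp2, also a marker of M cells, at 1.65 ± 0.23, the ribonuclease Rnase1 at -1.42 ± 0.25 and colipase, Clps, at -1.32 and -1.14 on its probes. The mean log2 level of that list was 7.96 to 8.39 in BALB/c and 8.15 to 8.51 in C57BL/6. Of 12 adipocyte genes 1 was called higher and none lower, with mean levels of 7.01 to 8.52 and 7.78 to 8.57, and without BALB/c mouse 1 the count was 1 higher and 4 lower. Of 3 erythroid genes tested, the beta-globin Hbb-bt differed by -1.74 ± 0.24 and Hbb-b2, undetected in C57BL/6, was at least 1.45-fold higher in BALB/c. The strains are known to carry different beta-globin haplotypes.

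The other lists held few called genes. Called shares were 10.5% for lipid absorption, 8.33% for amino acid enzymes and 6.90% for mitochondrial genes, beside 10.9% of all genes tested. Of 19 genes of lipid absorption, none was called higher and 2 lower, among them the triglyceride-forming enzyme Dgat2 at -0.43 ± 0.11. Of 24 amino acid and urea cycle enzymes, 1 was higher and 1 lower, the former ornithine decarboxylase, Odc1, by 0.69 ± 0.11. Of 29 genes of mitochondrial respiration and antioxidant defence, 2 were higher, among them Cat, and of 5 mast cell and granulocyte genes, 1 was higher and 1 lower. Of 5 genes tested in a list of known allele differences, H2-Ea was higher and Itln1 and the nucleotidase Entpd4, at -0.91 ± 0.10, were lower. That list named other intelectins, and Itln1 entered it through a gene synonym, so no allele difference of Itln1 is implied.

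**Figure D4:**
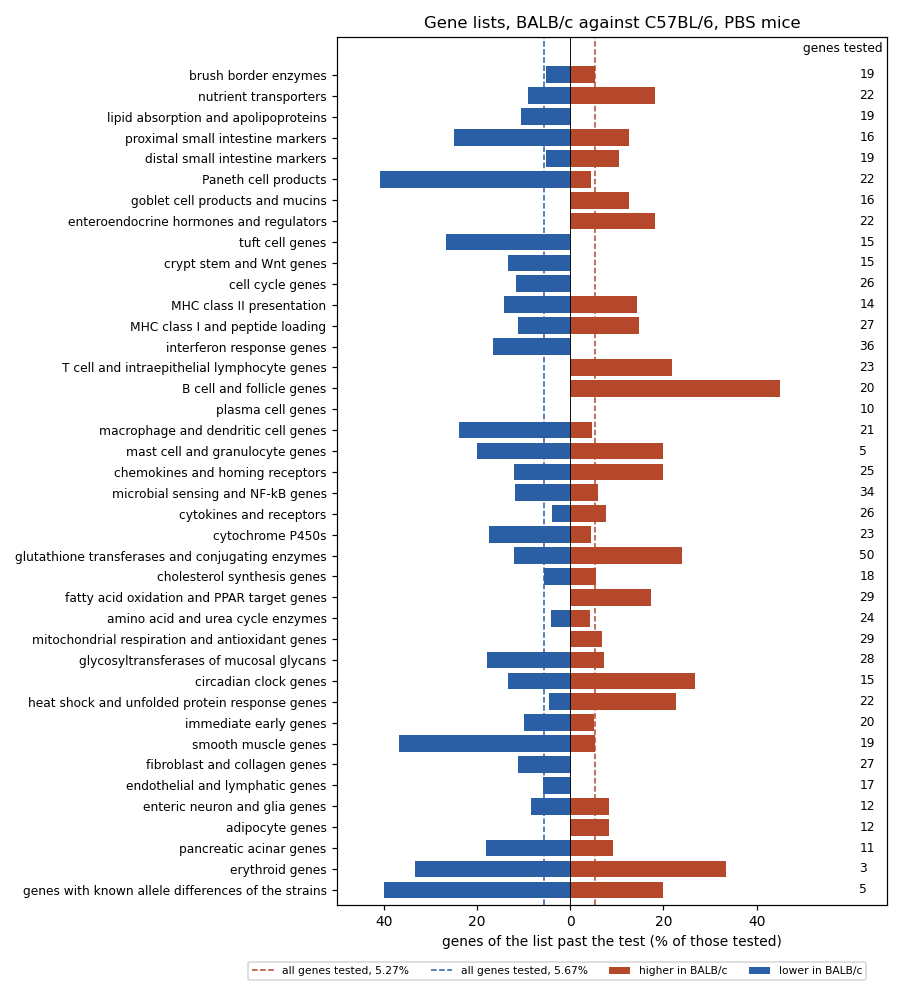
Share of each gene list's tested genes (%, x axis) called higher in BALB/c (to the right) and lower (to the left), 5 mice per strain, with dashed lines at the shares over all genes tested (5.27% and 5.67%). B cell and follicle genes reach farthest to the right, with 9 of 20, and Paneth cell products reach 9 of 22 to the left.

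The strain difference was read again in the 10 mice given VSL#3, which shared strain, supplier, sex and age but were other animals. There 1215 genes (12.6%) were called, 630 higher and 585 lower. Of the 1054 genes called in PBS mice, 1024 had the same sign, 710 were called the same way and none was called the opposite way. The 710 were 67.4% of the calls in PBS mice and 58.4% of those in VSL#3 mice, and of the 274 over 2-fold, 250 were called the same way. No gene passed the test of a strain by treatment difference in limma (0%), where the smallest adjusted p was 0.484 and 521 genes had an unadjusted p under 0.05.

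The largest differences had the same sign in the VSL#3 mice. H2-Ea gave 8.08, Defa31 8.09, AY761185 8.06, Defa22 -7.79, Cfl2 -6.17 and St3gal4 -5.81. Of the clock genes Dbp gave 2.12, Nr1d1 1.61, Nr1d2 1.08 and Nfil3 -0.82, all called, while Tef gave 0.55 (adjusted p = 0.297). Slc28a2 gave 0.45 (adjusted p = 0.359) and Oasl2 -0.34, neither called. The medians of the interferon and B cell lists were 0.15 and 0.34 there, against -0.16 and 0.65 in PBS mice.

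For the VSL#3 colons the deposited tables conflict: each of the 10 columns of the normalized table correlates best with an array of the other strain in the table of intensities, while the other columns each match their own array. In the intensities, used here, H2-Ea read 11.76 to 13.07 in the VSL#3 colons labelled BALB/c and 4.80 to 6.90 in those labelled C57BL/6. Those arrays enter the next fit through its spread alone.

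Set against the colon of the same mice, the strain difference differed between the tissues for 283 of 9198 genes (3.08%), 145 more positive in the small intestine and 138 more negative, by limma on the within-mouse difference in all 20 mice. Of the 1006 genes called in the small intestine and tested here, 139 were among them. The PBS mice alone, without the VSL#3 colons, gave 203 genes, 179 of them among the 283 and 101 among the 139. Defa22 differed by 0.02 between strains in the colon, Cfl2 by -0.05, Acta1 by -0.32, Fam20a by 0.28 and St3gal6 by -0.04, against -7.95, -6.16, -4.51, -2.93 and 1.54 in the small intestine. These genes passed the detection filter in the colon, but their signal levels there are not given here. A gene that is dim in the colon has little room to show a strain difference. Fam20a, a pseudokinase of the secretory pathway, gave -1.34 on its other probe. Gbp2b, an interferon-induced GTPase, was higher by 1.58 ± 0.28 in the small intestine and by 5.58 in the colon.

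Other large differences were present in both tissues, with no strain by tissue difference called. H2-Ea differed by 7.28 in the colon, Ctsc by -4.55, Fcer1g by -3.88, Abhd1 by 2.46, Dbp by 3.88 and Nr1d1 by 1.97. H1f10 and Taf4 did not pass the detection filter in the colon and so were not tested against it. Their differences there, -0.04 and 0.08, are between signals mostly below detection. Interferon response genes had a median of 0.71 in the colon, with Oasl2 at 1.14, and the strain by tissue difference of Oasl2 was called.

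**Figure D5:**
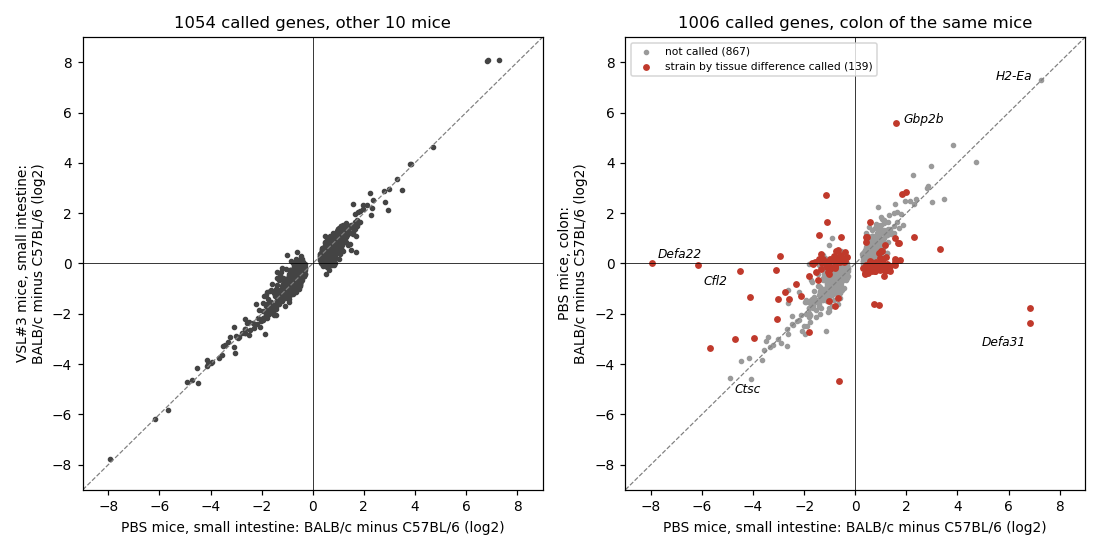
Strain differences (BALB/c minus C57BL/6, log2) of the genes called in the small intestine of PBS mice (x axes) against the small intestine of VSL#3 mice (left, y axis, 1054 genes) and the colon of the same PBS mice (right, y axis, 1006 genes), with dashed lines of equal differences and the 139 genes with a called strain by tissue difference in red. Points lie along the line on the left, and on the right red points include genes near 0 in the colon.

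Called genes lay near each other on the chromosomes. Of 1050 called genes with a following tested gene, that gene was called for 195 (18.6%), beside 10.9% of all 9628 placed genes. For differences over 2-fold the following gene was also over 2-fold for 35 of 272 (12.9%), beside 2.85%. Among windows of 20 neighbouring tested genes, the defensin cluster from Cdc16 to Defa39 held 8 such genes, and the H2 region from H2-K1 to H2-Ea held 6, including H2-Aa, H2-Ob and Psmb9. A window from Slco2a1 to Rpl29 also held 6, and one with 4 serine protease inhibitors, Serpina10, Serpina1b, Serpina1d and Serpina3n, held 5. These placements come from RefSeq and describe proximity only.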

How the data were processed

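Whole small intestinal RNA was read on Illumina MouseRef-8 BeadChips, 1 array per mouse, from 500 ng of total RNA and 750 ng of labelled cRNA, per the labels' protocols. The deposited table holds probe intensity values, not normalized between arrays per the file headers, of which 22.2% to 25.0% lie below 0 on these 10 arrays, so they were background-subtracted. The deposited detection cells are a fraction that rises with intensity, and were read as 1 minus the detection p-value. The authors also deposited a normalized log2 table, which was used as an alternative. limma is named in the submitters' processing notes, with no version.

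Intensities were background-corrected from the detection p-values (nec, offset 16), quantile-normalized over the 40 arrays and log2-transformed in R 4.3.3 with limma 3.58.1. Of 25697 probes, 23978 had a gene symbol and 1719 none, for 16593 symbols. A probe was kept if it had 1 symbol and a detection p under 0.05 on at least 5 of the 20 small intestine arrays, which left 13035 probes and 9634 genes. Where several probes were kept, the one with the highest mean over the 40 arrays stood for the gene. limma was fitted to the 20 small intestine arrays as 4 group means, with Benjamini-Hochberg adjustment over all genes. Probe disagreement was tested on the per-array difference of 2 probes, and tissue differences on the within-mouse difference. The model was run on simulated data with independent values for each gene, which cannot show effects of batch, supplier or probe sequence. Genes detected on no array of a group have a bound, the other group's mean over the higher of the array's lowest detected signal and the probe's own. The number of arrays limits the precision, and nothing says whether the mice shared litters or cages. The smallest p an exact test of 5 against 5 allows is 0.00794.

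Genes named are the 15 greatest differences in each direction without overlap, up to 4 of each list, the 10 greatest probe disagreements, the label checks, a set of cytokines and the greatest strain by tissue differences. The groups, lists and members were chosen with earlier results of these data known. Gene names are those of the platform annotation. Pla2g2a, H60a and Epcam were not analysed here.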

Additional observations from a re-analysis of the deposited data

Results flagged for a closer look

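In 15 of 316 groups of 5 values (4.75%) among the 158 named genes that were tested, 1 mouse lay far from the other 4 of its strain by Dixon's criterion, which chance meets in about 1 in 20 groups. BALB/c mouse 2 was that mouse in 6 of the 15. It was low for Glycam1 (8.58, others 9.87 to 10.38), Ltb (7.01, others 7.45 to 7.61), Klf2 (7.47, others 7.80 to 7.89), Serpina1b (7.71, others 8.19 to 8.36) and Ces1f (10.27, others 10.54 to 10.63), and high for Crat (7.67, others 7.10 to 7.25). BALB/c mouse 4 was low for Aqp8 (4.67) and high for Fcer1g (4.96), both near the detection limit. BALB/c mouse 5 was low for Plek2 (10.16) and high for Slc26a3 (5.59).

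Among C57BL/6 mice, mouse 1 was low for Il1b (5.66, others 6.43 to 6.64), mouse 3 was high for Car4 (11.41, others 10.34 to 10.60) and H2-K1 (8.67, others 7.87 to 8.06), mouse 4 was low for Defa21 (14.05, others 14.52 to 14.59) and mouse 5 was high for H2-Q5 (6.08, others 5.81 to 5.87).

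The strain difference differed between small intestine and colon, by limma's test of that difference, for 37 of the named genes in the fit over 20 mice. With the PBS mice alone 31 of them were called, and Actc1, Cartpt, H2-Aa, H2-Ob, Klk1 and Slc40a1 were not. The values below are the difference in the small intestine minus that in the colon, on the log2 scale. It was positive for the defensin cluster genes Defa31 (9.23) and AY761185 (8.62), and for Mptx1 (5.49), Nxpe4 (4.03), Serpina10 (2.75), Ces1f (2.59), Tm4sf4 (1.61), St3gal6 (1.58), Gstm6 (1.47), Plek2 (1.27), Acaa2 (1.09), Cartpt (1.09), Gstm2 (0.90), Odc1 (0.79) and Klk1 (0.57). Defa31 and AY761185 had the opposite sign in the colon, at -2.38 and -1.79, against 6.85 and 6.83 in the small intestine. Mptx1 and Nxpe4 differed in the colon by -6.09 and -4.68, against -0.61 and -0.65 in the small intestine.

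It was negative for the defensins Defa22 (-7.97) and Defa21 (-2.83), for the muscle genes Cfl2 (-6.11), Acta1 (-4.19) and Actc1 (-0.88), and for the class II genes H2-Ab1 (-2.16), H2-Aa (-1.71) and H2-Ob (-1.20). The interferon-induced genes Gbp2b (-3.995), Oasl2 (-2.54) and Trim30a (-0.85) were also negative. So were Serpina1b (-3.88), Fam20a (-3.22), ccdc198 (-2.79), St3gal4 (-2.33), Gcnt1 (-1.34), Tnfrsf19 (-1.15), Gadd45b (-1.14), Aldh1a7 (-0.99), B3gnt3 (-0.83), C1qb (-0.82) and Slc40a1 (-0.81).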

How the results depend on the processing

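The numbers of genes called, 1054 at the main setting, ranged from 870 (without BALB/c mouse 5) to 999 (without BALB/c mouse 2) on leaving out 1 mouse, with 389 to 486 higher, 481 to 526 lower and 257 to 281 over 2-fold. Calls in VSL#3 mice ranged from 976 to 1241, strain by treatment calls stayed at 0, strain by tissue calls ranged from 194 to 285 and disagreeing probe pairs from 117 to 146. Median scaling gave 327 higher. Detection on all 20 arrays left 6957 genes, with 164 over 2-fold and 90 disagreeing probe pairs, and no filter gave 245 pairs, both by changing which probes were tested. Mice 1 to 3 alone gave 452 calls (187 higher, 265 lower) and mice 4 and 5 alone 383 (168 and 215), with fewer samples. Over 2-fold, 390 genes were called with no background correction and 393 with the deposited normalized values. Mouse numbers did not pair the strains (correlation of same-numbered deviations -0.186 to 0.00922, no mouse correlating best with its own number), and the replicate block gave 940 calls, 436 higher and 504 lower.

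Over 3583 alternatives of 158 named genes, 3258 kept direction and side of the threshold, 294 lost the call, 5 gained it and 26 changed sign. Averaging a gene's probes turned Mcm6 (-0.94), H2-Ab1 (-1.43), Defa20 (-3.88) and Pdxdc1 (1.03) by its own construction, and H2-K1 lost its call. The other sign changes were in genes with no call, whose cause was not tested. Array weights gave Car4 0.0310. Mice 1 to 3 gave Fabp6 0.0509. Mice 4 and 5 gave Car4 0.219, Sis 0.121, Zfp330 0.0328, Il1b -0.0678, Slc26a3 0.0199 and Uty -0.113. C57BL/6 mice 3 and 5 gave Vil1 0.0300, Zfp330 0.160, Il1b -0.149 and Uty -0.265. Leaving out 1 mouse gave Car4 -0.156 to 0.135, Fabp6 -0.0772 to 0.0543, Sis -0.165 to 0.0360, Il1b -0.118 to 0.127 and Uty -0.0589 to 0.187. Genes near background have understated differences.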
